A study of Mus musculus with 14 samples.

Results

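The genes described here are the cytochrome P450 (P450) genes of families 1 to 4, counted in 14 mouse liver tumour libraries. They were chosen by symbol: every row whose name is Cyp, a family number from 1 to 4, subfamily letters and a gene number, without Cyp2e1 and Cyp1a2. The rule found 75 genes in 21 subfamilies among the 77981 genes of the table. Of these, 51 genes in 15 subfamilies held 20 or more counts summed over the 14 libraries and were tested. Of the other 24, 13 held 1 to 19 counts and 11 held none.

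Tumours had been started with plasmids that carry mouse c-Myc and β-catenin, given by hydrodynamic injection, which drives DNA into hepatocytes. Per the labels, 5 libraries came from WT mice, 5 from Cdk18 knockout mice (CDK18KO) and 4 from mice without Cdk18 and Cdk16 (DKO). By the protocols in the labels, floxed Cdk16 (Cdk16 fl/fl) was deleted in established tumours by Cre-ERT2, a recombinase that tamoxifen switches on. Tamoxifen was given at 75 mg/kg on 5 days to those mice and to Cre-ERT2 controls, and tumours were taken 10 days later. The protocol text is the same for all 14 libraries, so which groups carried Cre-ERT2, and the promoter that drove it, are not given in the sources used here. Neither the age nor the sex of the mice is given. All groups share the c-Myc and β-catenin plasmids, and tumours were taken at 15 mm, at signs of distress or at 8 weeks.

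P450 enzymes of these families are haem proteins of the endoplasmic reticulum that insert oxygen into drugs, steroids and fatty acids. Family 1 to 3 enzymes act mainly on foreign compounds and steroids, and family 4 enzymes on fatty acids. Most are made in hepatocytes, many of them in the cells around the central vein, where β-catenin signalling is active. Their genes lie in clusters of close copies. Transcription is set by liver factors such as Hnf4a and Cebpa, by the receptors Ahr (Cyp1), Nr1i3 and Nr1i2 (Cyp2b, Cyp2c, Cyp3a) and Ppara (Cyp4a), and for some copies by sex through growth hormone.

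The 250 bases upstream of the RefSeq start (GRCm38.p6) are printed for 6 members on which the results below turn. Cyp1b1 was lower in CDK18KO than in WT, against most of the family. Cyp2a4 and Cyp2a5 are close copies whose levels lay far apart in CDK18KO 2 and 4, and so did those of the more distant pair Cyp2c50 and Cyp2c29. Cyp2c68 was higher in every CDK18KO library than in any WT library. Capitals mark exact matches, on either strand, to the letters of a TATA box or of a site for Cebp, Hnf4a, TCF or Ahr, which are spelled out after the sequences.
Cyp1b1 (chr17:79715062-79715311, - strand): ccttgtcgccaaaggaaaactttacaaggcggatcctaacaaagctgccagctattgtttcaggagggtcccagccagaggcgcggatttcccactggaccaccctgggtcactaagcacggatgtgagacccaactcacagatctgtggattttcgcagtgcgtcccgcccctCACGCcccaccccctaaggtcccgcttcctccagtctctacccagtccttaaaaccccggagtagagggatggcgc
Cyp2a4 (chr7:26306942-26307191, + strand): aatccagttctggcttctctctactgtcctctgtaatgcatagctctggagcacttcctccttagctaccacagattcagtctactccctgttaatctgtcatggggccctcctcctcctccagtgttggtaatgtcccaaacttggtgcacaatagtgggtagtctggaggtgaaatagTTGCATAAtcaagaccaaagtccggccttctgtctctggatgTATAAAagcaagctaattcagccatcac
Cyp2a5 (chr7:26835089-26835338, + strand): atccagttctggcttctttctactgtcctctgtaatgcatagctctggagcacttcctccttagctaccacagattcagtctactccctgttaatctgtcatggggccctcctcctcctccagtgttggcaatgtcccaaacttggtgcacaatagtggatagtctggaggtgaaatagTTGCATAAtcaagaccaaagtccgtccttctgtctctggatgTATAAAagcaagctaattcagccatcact
Cyp2c29 (chr19:39286835-39287084, + strand): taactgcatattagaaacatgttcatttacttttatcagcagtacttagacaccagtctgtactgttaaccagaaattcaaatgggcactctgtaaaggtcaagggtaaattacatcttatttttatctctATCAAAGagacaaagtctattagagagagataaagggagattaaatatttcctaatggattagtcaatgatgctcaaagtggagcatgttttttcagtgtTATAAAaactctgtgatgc
Cyp2c50 (chr19:40089429-40089678, + strand): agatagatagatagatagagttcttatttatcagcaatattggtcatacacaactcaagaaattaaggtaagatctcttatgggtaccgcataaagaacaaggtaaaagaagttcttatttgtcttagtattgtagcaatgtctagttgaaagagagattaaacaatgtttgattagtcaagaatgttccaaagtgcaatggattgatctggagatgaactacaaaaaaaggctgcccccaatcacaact
Cyp2c68 (chr19:39741102-39741351, - strand): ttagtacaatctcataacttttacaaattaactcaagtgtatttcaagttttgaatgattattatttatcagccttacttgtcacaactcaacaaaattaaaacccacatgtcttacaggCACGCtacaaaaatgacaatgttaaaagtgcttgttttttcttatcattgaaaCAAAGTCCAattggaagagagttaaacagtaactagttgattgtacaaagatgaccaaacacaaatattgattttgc
The windows of Cyp2a4 and Cyp2a5 were 98.4% identical over 249 aligned bases, and the TATA box and Cebp letters are marked in both. Those of Cyp2c29 and Cyp2c50 were 74.6% identical over 201 aligned bases. The Cyp2c29 window held a TCF site and a TATA box, and the Cyp2c50 window held none of the letters searched. Of the 51 genes tested, 42 had a promoter entry, and 7 of them (16.7%) held the Hnf4a letters CAAAGTCCA, against 0.381% of 27025 mouse promoters of the same length. These were Cyp2c40, Cyp2c67, Cyp2c68, Cyp2c69, Cyp2c70, Cyp3a11 and Cyp3a16. The TATA box letters TATAAA were in 40.5% of these members and 13% of all promoters. The Cebp letters TTGCNNAA, bound by a family of liver factors, were in 26.2% of the members and 9.55% of promoters. For the letters CTTTGAT of TCF factors, the partners of β-catenin on DNA, the shares were 4.76% and 3.23%. For the core GCGTG of the sites of Ahr, the receptor for dioxins, they were 16.7% and 28.2%. The nuclear receptor repeat called DR1, a pair of AGGNCA elements 1 base apart, was in 7.14% of members (Cyp2d9, Cyp2d10 and Cyp2d40) and in 0.333% of promoters. The STAT letters TTCNNNGAA were in 4.76% of the members and 7.18% of promoters. Close copies share these windows, so the members are not independent of each other, and a match is a description of letters only.

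Counts per library ran from 1442417 (WT 5) to 6068209 (WT 2). Levels are given as CPM, which scales the counts of each library to a common total, with TMM factors set from most genes. The kit reads transcript ends, so CPM is not divided by gene length. Cdk18 stood at 1.22 to 11.5 CPM in WT, 0.943 to 3.37 CPM in CDK18KO and 0.525 to 4.13 CPM in DKO, and the groups overlapped. Cdk16 stood at 38.7 to 65.2 CPM in WT, 31.6 to 68.9 CPM in CDK18KO and 16.8 to 48.1 CPM in DKO. These levels do not check the labels, since reads come from transcript ends and the sources used here do not name the deleted parts. Libraries of a group differed widely, with a common biological coefficient of variation of 0.641 over the 19723 genes tested.

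The summed level of the family spanned more than the groups did. It was 52.9, 761, 117, 127 and 494 CPM in WT 1 to 5, 739, 6687, 216, 2773 and 442 CPM in CDK18KO 1 to 5, and 4760, 10569, 557 and 1727 CPM in DKO 1 to 4. Medians were 127 CPM in WT, 739 CPM in CDK18KO and 3243 CPM in DKO. The groups overlapped: WT 2 stood above CDK18KO 1, 3 and 5 and above DKO 3. The heat map of the tested genes shows that CDK18KO 2, DKO 1 and DKO 2 carried high levels of many hepatic members, and WT 1 low levels of nearly all. CDK18KO 4 was high for some, such as Cyp3a11 (429 CPM), and low for others, such as Cyp2c50 (0.988 CPM).

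**Figure D1:**
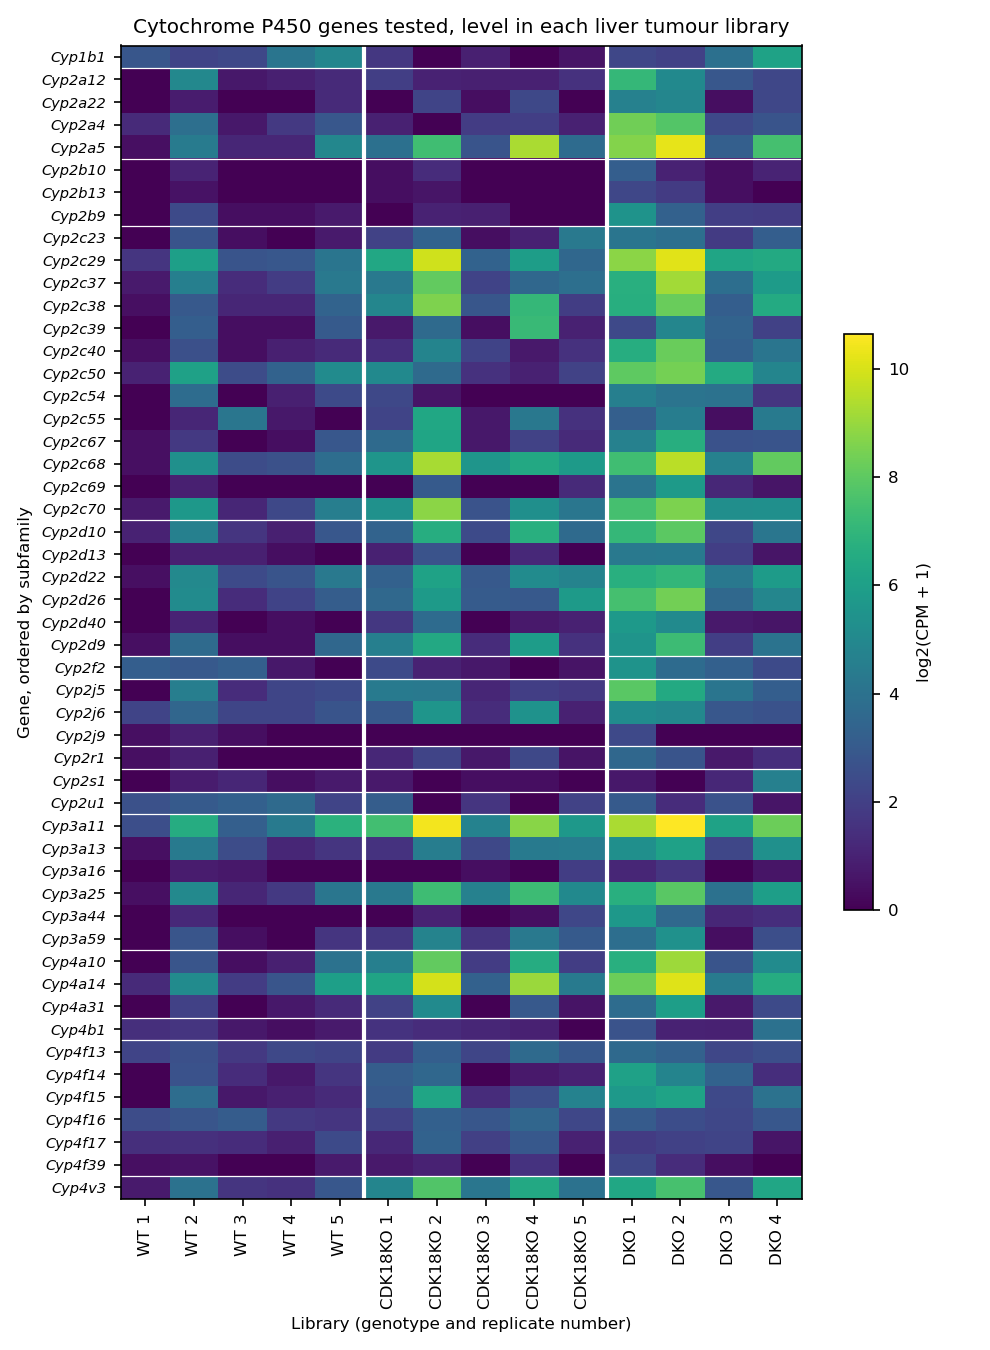
Level of each of the 51 tested P450 genes (rows, ordered by subfamily) in each of the 14 libraries (columns, by genotype), as log2(CPM + 1). Columns CDK18KO 2, DKO 1 and DKO 2 are bright in most Cyp2c, Cyp3a and Cyp4a rows, while Cyp1b1 is dark in all CDK18KO columns. CDK18KO 4 is bright in rows such as Cyp3a11 and Cyp4a14 and dark in others such as Cyp2c40 and Cyp2c50.

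Hepatocyte markers varied alongside the family. Over 30 hepatocyte markers that are not P450 genes, such as the albumin gene Alb, the summed level ran from 357 to 8922 CPM in WT, 3028 to 27096 CPM in CDK18KO and 3704 to 40101 CPM in DKO. Alb itself was at 29.6 to 1216 CPM in WT, 56.4 to 1198 CPM in CDK18KO and 575 to 3229 CPM in DKO. Every library held Alb counts, but levels were low in WT 1 (29.6 CPM), CDK18KO 3 (56.4 CPM) and WT 3 (66.9 CPM). Per 100 CPM of these markers, the P450 genes gave 12.7 ± 2.92 CPM in WT (SD, n = 5), 13.2 ± 8.47 CPM in CDK18KO (n = 5) and 18.4 ± 5.71 CPM in DKO (n = 4). That ratio was lowest in CDK18KO 5, at 2.91, and highest in DKO 2, at 26.4, and all 3 groups overlapped. In bulk tissue, fewer hepatocytes and less RNA per hepatocyte cannot be told apart.

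**Figure D2:**
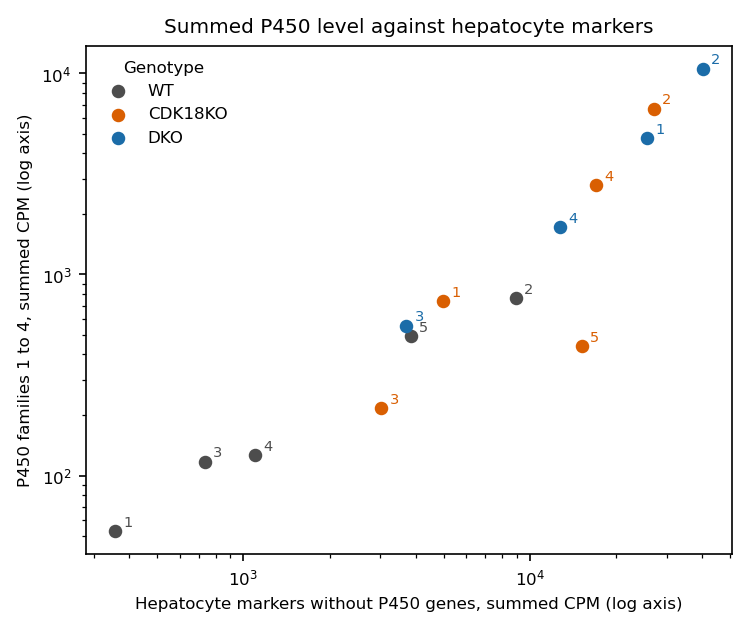
Summed CPM of the P450 genes (y axis) against summed CPM of 30 hepatocyte markers without P450 genes (x axis), both on log axes, 1 point per library with its replicate number. Libraries low in markers (WT 1, 3 and 4) are low in P450 genes, and CDK18KO 5 lies below the other libraries of like marker level.

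In CDK18KO against WT, which asks about the loss of Cdk18 alone, 41 of 51 tested P450 genes were higher and 10 lower, where 46.5% of all genes were higher. Their median log2 fold change was 1.83, against -0.06 over all genes tested. By the edgeR quasi-likelihood test with Benjamini-Hochberg adjustment over all genes, 0 of the 51 passed an adjusted p of 0.05, where 0.00507% of all genes did, and the smallest adjusted p of a member was 0.158. At an unadjusted p under 0.05 there were 18 higher members and 1 lower, against 9.47% and 6.48% of all genes. DESeq2 called 10 members (4.72% of all genes), 9 higher and Cyp1b1 lower. The count of 19 members at an unadjusted p was 11 without WT 1 or WT 3, 10 without WT 4 and 8 without CDK18KO 2. Fitting the mean log2 level of the hepatocyte markers as a covariate gave a member median of -0.19, with 20 genes higher and 31 lower, of which 3 and 5 had an unadjusted p under 0.05 (4.89% of all genes). With log2 Y-linked expression as a covariate, described further on, 6 higher and 1 lower had such a p. No share of all genes is given here for that fit or for those that left out a library. Without CDK18KO 2 the member median was 1.0.

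DKO against WT asks about the loss of the pair of kinases, and here 50 of 51 P450 genes were higher, against 47.1% of all genes. Their median log2 fold change was 3.33, against -0.06 over all genes. The edgeR test passed 0 members (0.00507% of all genes), with a smallest adjusted p of 0.174. At an unadjusted p under 0.05 there were 38 higher members and 0 lower, against 11.6% and 5.08% of all genes. DESeq2 called 26 members, all of them higher, where it called 5.24% of all genes. The median was 4.75 without WT 2, and 0.28 with the hepatocyte covariate, with 29 higher and 22 lower. The 38 members at an unadjusted p were 1 with the hepatocyte covariate (2.57% of all genes) and 19 with the Y-linked covariate. The share of all genes under the Y-linked covariate is not given here. This comparison and the one before share the 5 WT libraries.

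DKO and CDK18KO differ in Cdk16 by their labels, and the part of Cre-ERT2 and tamoxifen cannot be told apart from it. Here 46 P450 genes were higher in DKO and 5 lower, where 49.6% of all genes were higher, with a median of 1.26 against -0.00 over all genes. No member passed the edgeR test (0% of all genes), and the smallest adjusted p was 0.208. Unadjusted, 20 members were higher at p under 0.05 and 0 lower (5.52% and 1.83% of all genes), and 11 without DKO 1. DESeq2 called 6 members higher (0.654% of all genes): Cyp2a4, Cyp1b1, Cyp2c50, Cyp2b9, Cyp2a12 and Cyp2f2. The median was 0.71 without DKO 2 and 0.22 with the hepatocyte covariate, under which 11 higher members and 1 lower had an unadjusted p under 0.05 (8.34% of all genes). With the Y-linked covariate there were 13, all higher. No share of all genes is given here for that fit or for the one without DKO 1.

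**Figure D3:**
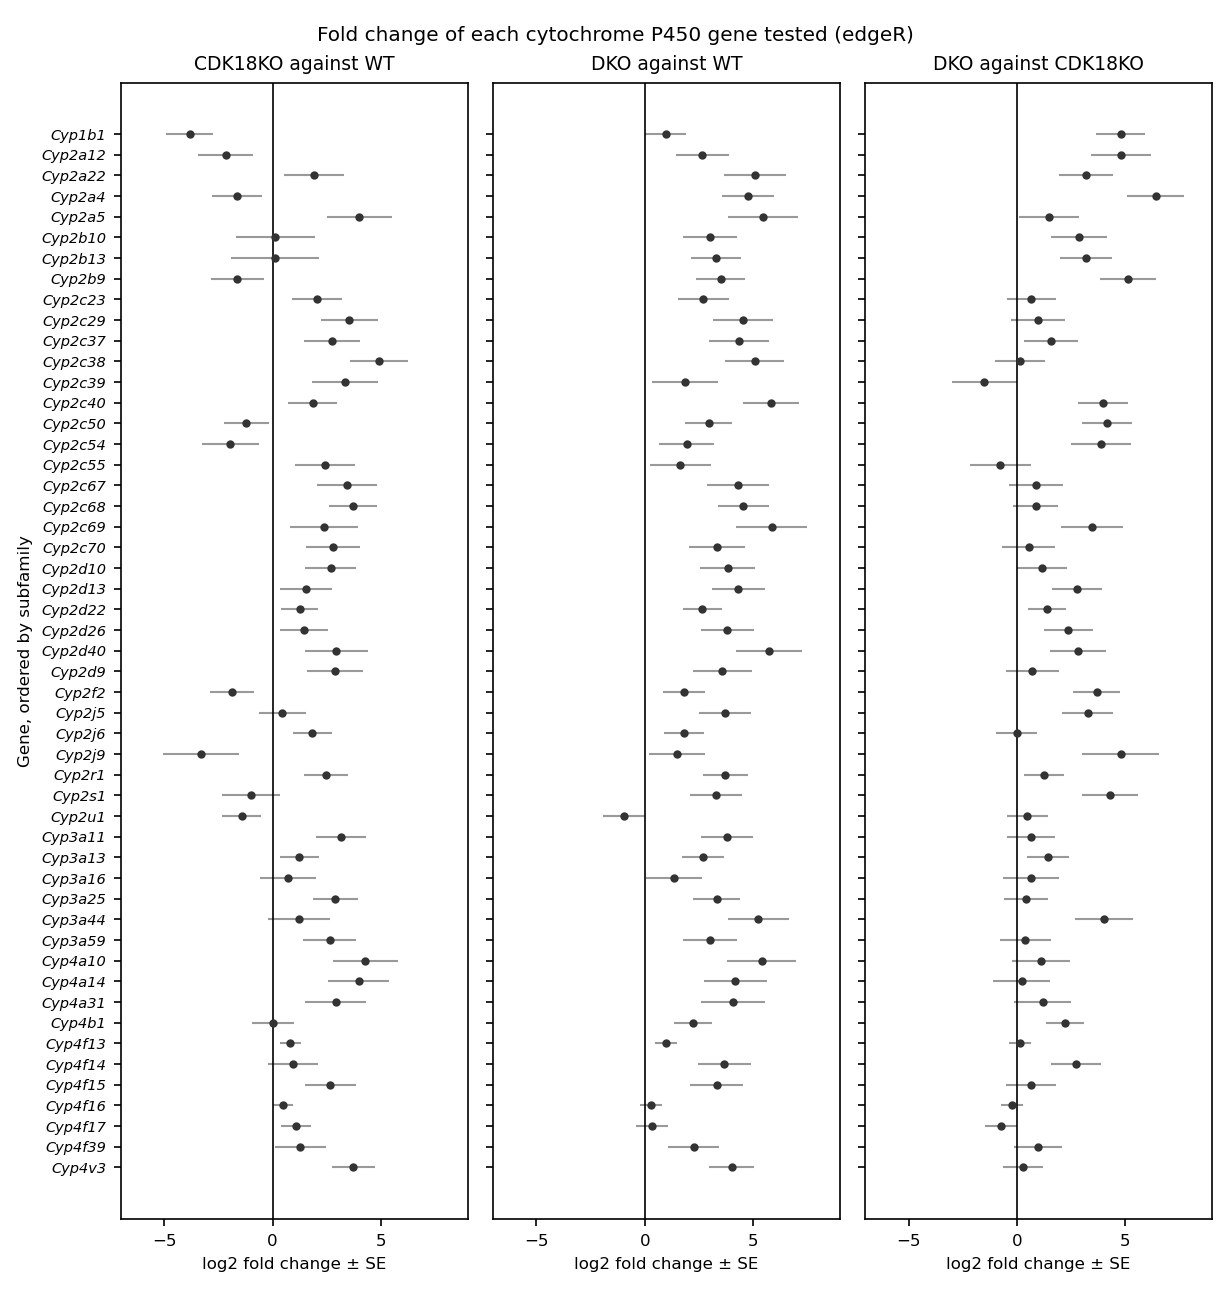
Log2 fold change (point) and its SE (bar) from edgeR for the 51 tested P450 genes in 3 comparisons, with a line at 0. In DKO against WT all genes but Cyp2u1 lie right of the line, and in CDK18KO against WT Cyp1b1 (-3.82) lies far left of it.

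Libraries of different groups did not overlap for few members. In CDK18KO against WT these were Cyp2c68, higher, and Cyp1b1, lower (2.53% of all genes tested did not overlap). In DKO against WT they were Cyp2c29 and Cyp2c40, both higher (4.88% of all genes). In DKO against CDK18KO they were Cyp1b1, Cyp2a4, Cyp2a12, Cyp2b9 and Cyp2f2, all higher (1.76% of all genes).

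Family 1 was represented by Cyp1b1, which metabolises polycyclic hydrocarbons and oestrogens and is made mainly outside hepatocytes. Its level was 6.27, 3.48, 3.95, 16.5 and 28.8 CPM in WT 1 to 5, 2.27, 0, 0.919, 0 and 0.472 CPM in CDK18KO 1 to 5, and 3.83, 3.15, 14.4 and 69.1 CPM in DKO 1 to 4. Every CDK18KO library lay below every other library. Against WT the CDK18KO value was -3.82 on the log2 scale (SE 1.08, edgeR adjusted p = 0.162, DESeq2 adjusted p = 0.00944). DKO stood above CDK18KO by 4.78 (SE 1.13, edgeR adjusted p = 0.227, DESeq2 adjusted p = 0.00319). DKO against WT gave 0.96 (SE 0.95), and -0.73 without DKO 4. Cyp1a1, the classical Ahr target, held 17 counts in all and was not tested.

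Markers of stromal and bile duct cells were measured beside Cyp1b1, and followed it in some libraries and not in others. The 13 fibroblast and stellate markers summed to 543 to 1331 CPM in WT, 51.0 to 996 CPM in CDK18KO and 454 to 1284 CPM in DKO, with CDK18KO 1 the high value of its group. In CDK18KO against WT 11 of 13 were lower, with a median of -1.63. By library, CDK18KO 2 to 5 held 51.0 to 245 CPM of them with Cyp1b1 at 0 to 0.919 CPM. WT 5 was the highest WT library for the markers (1331 CPM) and for Cyp1b1 (28.8 CPM). CDK18KO 1 held 996 CPM of the markers with Cyp1b1 at 2.27 CPM. DKO 1 held 1284 CPM with Cyp1b1 at 3.83 CPM, and DKO 4 held 549 CPM with Cyp1b1 at 69.1 CPM. The 10 cholangiocyte markers summed to 160 to 409 CPM in WT, to 317 CPM in CDK18KO 1 and 35.5 to 48.6 CPM in the other CDK18KO libraries, and to 141 to 542 CPM in DKO. Of their defining genes, Krt19 was at 0.914 to 27.9 CPM in WT and Epcam at 39.5 to 130 CPM. In CDK18KO 1, despite its high sum, Krt19 was at 0.65 CPM and Epcam at 6.5 CPM. Both were lower still in the other CDK18KO libraries, with Krt19 at 0 in CDK18KO 2 and 3. In DKO the 2 genes differed. Epcam was at 9.73, 1.58, 114 and 10.7 CPM in DKO 1 to 4, so all but DKO 3 lay below every WT library. Krt19 lay within the WT range in DKO 1, 2 and 3 and above it in DKO 4, at 40.2 CPM. The part of stromal and bile duct cells in the Cyp1b1 difference was not tested.

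Cyp2a enzymes hydroxylate steroids and coumarin. Cyp2a5, the mouse coumarin hydroxylase of perivenous hepatocytes, was at 0.348, 20.7, 1.22, 1.22 and 29.5 CPM in WT 1 to 5, 14.3, 166, 5.82, 623 and 12.3 CPM in CDK18KO 1 to 5, and 405, 1224, 8.34 and 182 CPM in DKO 1 to 4. The groups overlapped, since WT 2 and WT 5 stood above 3 CDK18KO libraries and DKO 3. Against WT the log2 fold change was 3.99 in CDK18KO (SE 1.5, edgeR adjusted p = 0.223) and 5.46 in DKO (SE 1.63, edgeR adjusted p = 0.174).

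Cyp2a4, a testosterone 15-alpha-hydroxylase that is female-biased in mouse liver, had a log2 fold change of the other sign in CDK18KO against WT. It was at 1.39, 13.9, 0.608, 2.44 and 6.47 CPM in WT, 0.975, 0, 2.76, 2.96 and 0.943 CPM in CDK18KO, and 323, 222, 4.17 and 5.89 CPM in DKO. All DKO libraries lay above all CDK18KO libraries, by 6.39 on the log2 scale (SE 1.31, edgeR adjusted p = 0.208, DESeq2 adjusted p = 4.58e-05). With the hepatocyte covariate the difference was 4.37. Against WT it was -1.63 in CDK18KO (SE 1.16) and 4.76 in DKO (SE 1.19). Without WT 2 the CDK18KO value was -0.60.

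The share of Cyp2a4 in the counts of the pair differed between libraries of every group. In WT 1 to 5 it was 80.0, 40.2, 33.3, 66.7 and 18%, where WT 1, 3 and 4 rested on 5, 6 and 12 counts. In CDK18KO 1 to 5 it was 6.38, 0, 32.1, 0.474 and 7.14%, and in DKO 1 to 4 it was 44.4, 15.3, 33.3 and 3.14%. All CDK18KO libraries but CDK18KO 3, which had 9 of 28 counts, lay below every WT library, and so did DKO 2 and DKO 4. CDK18KO 1, 3 and 5 lay within the DKO range. In CDK18KO 2 the count was 0 of 325, with a Wilson 95% upper limit of 1.17% (0.923% at a floor of 3 counts), and in CDK18KO 4 it was 9 of 1900 (Wilson 95% interval 0.249 to 0.898%). Over the last 300 bases of the Cyp2a4 transcript the genes were 97.3% identical, so how reads there were split between them is uncertain. In the other direction, the last 300 bases of Cyp2a5 aligned to the Cyp2a4 transcript over only 36 bases. This pair and Cyp2c50 with Cyp2c29 were chosen after their values were seen, and the intervals cover counting error only.

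**Figure D4:**
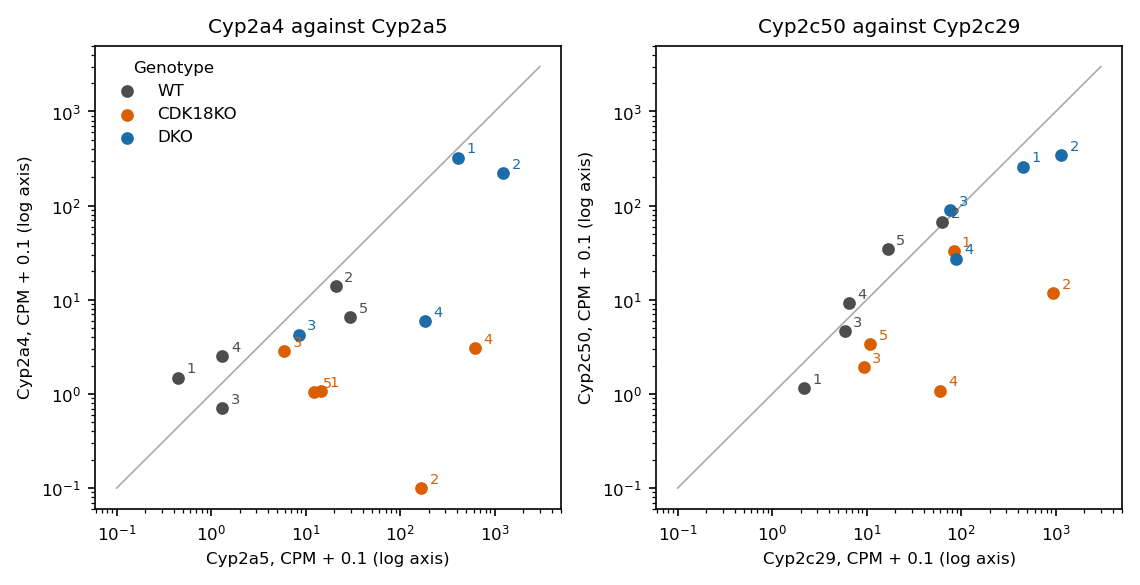
Cyp2a4 against Cyp2a5 (left) and Cyp2c50 against Cyp2c29 (right), in CPM + 0.1 on log axes, 1 point per library with its replicate number, with a line of equal levels. CDK18KO libraries 2 and 4 lie far below the line in both panels, at a Cyp2a4 level of 0 and 2.96 CPM.

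Cyp2a12 and Cyp2a22 were highest in DKO 1 and 2. The last 300 bases of Cyp2a12 aligned to Cyp2a22 over 289 bases at 95.9% identity. Those of Cyp2a22 aligned to Cyp2a12 over 179 bases at 96.1%. Cyp2a12 was at 0 to 1.44 CPM in 4 WT libraries and 30.7 CPM in WT 2, at 0.919 to 2.92 CPM in CDK18KO, and at 136, 32.0, 6.41 and 3.75 CPM in DKO. DKO lay above CDK18KO without overlap, by 4.81 on the log2 scale (SE 1.38, edgeR adjusted p = 0.371, DESeq2 adjusted p = 0.0191). The CDK18KO difference from WT rested on WT 2, being -2.16 with it and 1.15 without it. Cyp2a22 was at 24.8, 28.9, 0.321 and 3.75 CPM in DKO and 0 to 1.44 CPM in WT, with DKO 3 inside the WT range, and differed from WT by 5.09 (SE 1.42).

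Cyp2b genes, the classical targets of the receptor Nr1i3, were scarce. Their sum was 0 to 0.719 CPM in 4 WT libraries and 5.75 CPM in WT 2, at most 3.07 CPM in CDK18KO, and 54.8, 12.6, 3.53 and 3.75 CPM in DKO. Cyp2b9, a female-biased member, made up most of it and stood at 43.0, 8.93, 2.89 and 2.68 CPM in DKO against 0 to 1.02 CPM in CDK18KO, with no overlap. Its log2 fold change in DKO was 5.12 against CDK18KO (SE 1.29, edgeR adjusted p = 0.251, DESeq2 adjusted p = 0.0177) and 3.49 against WT (SE 1.13, edgeR adjusted p = 0.175). Cyp2b13 was at 3.83, 2.63, 0.321 and 0 CPM in DKO, from 19 counts of which 13 were in DKO 1, and its 3 WT counts were all in WT 2. Cyp2b10, the member most used as a marker of Nr1i3 activity, was at 7.96 CPM in DKO 1 and at most 1.53 CPM elsewhere.

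Cyp2c was the most counted subfamily, with 25434 counts and 13 of 15 genes tested, and its members oxidise drugs, steroids and arachidonic acid. The sum was 5.92 to 286 CPM in WT, 77.5 to 2860 CPM in CDK18KO and 293 to 4009 CPM in DKO, so no DKO library lay below a WT library. In CDK18KO against WT 11 of 13 were higher, with a median of 2.75, and in DKO all 13, with a median of 4.31. Which member led the subfamily changed between libraries. Cyp2c50 led in WT 2, 4 and 5 and DKO 3, Cyp2c29 in WT 1, CDK18KO 1 and 2 and DKO 1 and 2, and Cyp2c68 in CDK18KO 3 and 5 and DKO 4. Cyp2c39, which hydroxylates retinoic acid, led in CDK18KO 4 at 147 CPM against at most 28.4 CPM in any other library. Cyp2c55, made mostly in the gut, led in WT 3.

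Cyp2c68 stood at 0.348, 39.8, 4.56, 5.18 and 12.9 CPM in WT 1 to 5, 45.5, 601, 46.3, 85.0 and 54.7 CPM in CDK18KO 1 to 5, and 164, 749, 24.7 and 272 CPM in DKO 1 to 4. All CDK18KO libraries lay above all WT libraries, while DKO 3 lay below WT 2. Against WT it differed on the log2 scale by 3.69 in CDK18KO (SE 1.11, edgeR adjusted p = 0.169, DESeq2 adjusted p = 0.00996) and 4.55 in DKO (SE 1.18, edgeR adjusted p = 0.174). Its last 300 bases were 98% and 97.3% identical to Cyp2c40 and Cyp2c67, and aligned to Cyp2c69 over 143 bases at 94.4%. The last 300 bases of Cyp2c69 aligned to Cyp2c68 in full at 96.3%, so reads may be split among the 4.

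Cyp2c40, a female-biased member that oxidises arachidonic acid, was at 0.348, 5.14, 0.304, 0.914 and 1.44 CPM in WT, 1.62, 26.6, 3.37, 0.659 and 1.89 CPM in CDK18KO, and 98.2, 293, 8.66 and 16.6 CPM in DKO. DKO lay above WT without overlap, by 5.82 on the log2 scale (SE 1.27, edgeR adjusted p = 0.174, DESeq2 adjusted p = 0.000180). Against CDK18KO the difference was 3.97 (SE 1.16, edgeR adjusted p = 0.371), with CDK18KO 2 inside the DKO range. Cyp2c69, its neighbour, was higher in DKO than in WT by 5.85 (SE 1.63), with levels of 0.536 to 54.1 CPM in DKO and counts in only WT 2 among WT libraries.

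Cyp2c29, an Nr1i3 target and perivenous gene, was at 2.09, 62.9, 5.78, 6.40 and 16.5 CPM in WT, 82.9, 945, 9.19, 58.9 and 10.8 CPM in CDK18KO, and 447, 1138, 76.3 and 87.8 CPM in DKO. DKO did not overlap WT. Its log2 differences from WT were 3.53 in CDK18KO (SE 1.31, edgeR adjusted p = 0.217, DESeq2 adjusted p = 0.0295) and 4.52 in DKO (SE 1.39, edgeR adjusted p = 0.174, DESeq2 adjusted p = 0.00950). Without CDK18KO 2 the CDK18KO value was 1.08.

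Cyp2c50, its relative in the same cluster, was at 1.04, 67.3, 4.56, 9.14 and 34.5 CPM in WT, 32.5, 11.8, 1.84, 0.988 and 3.30 CPM in CDK18KO, and 259, 343, 90.1 and 27.3 CPM in DKO. Its log2 fold change was -1.21 in CDK18KO against WT (SE 1.03) and 4.15 in DKO against CDK18KO (SE 1.15, edgeR adjusted p = 0.340, DESeq2 adjusted p = 0.0146). Without WT 2 the value in CDK18KO against WT was -0.22. In the counts of Cyp2c50 and Cyp2c29 together, the Cyp2c50 share was 33.3 to 67.6% in WT, 1.23 to 28.2% in CDK18KO and 23.2 to 54.1% in DKO. CDK18KO did not overlap WT in this share, though WT 1 rested on 9 counts. The like shares of Cyp2c39, Cyp2c40, Cyp2c54 and Cyp2c68 with Cyp2c29 did overlap between these groups. So did that of Cyp3a44 with Cyp3a11. Cyp2c54, whose end is 93.1% identical to that of Cyp2c50 over 277 bases, was also lower in CDK18KO than in WT in the fit. It was at 0 to 0.511 CPM in 4 CDK18KO libraries and 3.9 CPM in CDK18KO 1. In WT 1 to 5 it was at 0, 12.7, 0, 0.914 and 4.32 CPM.

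Cyp2c38 had the largest fold change of the family in CDK18KO. It stood at 0.348 to 9.35 CPM in WT with a median of 1.22, at 28.6, 380, 6.13, 137 and 2.83 CPM in CDK18KO, and at 102, 296, 8.02 and 88.9 CPM in DKO. The log2 fold change was 4.91 in CDK18KO (SE 1.33, edgeR adjusted p = 0.158, DESeq2 adjusted p = 0.00269) and 5.06 in DKO (SE 1.36, edgeR adjusted p = 0.174). CDK18KO 3, CDK18KO 5 and DKO 3 fell within the WT range.

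Cyp2d genes, relatives of the human drug-oxidising CYP2D6, had 6 of 9 members tested. All 6 were higher than WT in CDK18KO, with a median of 2.10, and in DKO, with a median of 3.82. Sums ran from 1.74 to 104 CPM in WT, 19.9 to 323 CPM in CDK18KO and 39.5 to 921 CPM in DKO, and the groups overlapped. Cyp2d40 differed most, by 5.74 in DKO against WT (SE 1.52, edgeR adjusted p = 0.174), from levels of at most 1.06 CPM in WT to 52.5 and 33.6 CPM in DKO 1 and 2, with 0.641 and 0.536 CPM in DKO 3 and 4. Cyp2d26 was at 182, 331, 11.2 and 28.4 CPM in DKO and differed from WT by 3.81 (SE 1.21). The male-biased Cyp2d9 and its neighbour Cyp2d10 were higher in CDK18KO by 2.86 (SE 1.29) and 2.67 (SE 1.18). Cyp2d34 gave all of its 16 counts in WT 3 and was not tested.

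Cyp2f2, the naphthalene oxidase of periportal hepatocytes and airway club cells, is the periportal member. Its level was 8.01, 6.81, 8.21, 0.609 and 0 CPM in WT, 4.22, 1.02, 0.613, 0 and 0.472 CPM in CDK18KO, and 43.0, 12.1, 8.66 and 4.28 CPM in DKO. WT 1 and WT 3, among the lowest libraries for the family, were among the higher ones for Cyp2f2. The log2 fold change was -1.88 in CDK18KO against WT (SE 1.02, edgeR adjusted p = 0.388) and 3.68 in DKO against CDK18KO, where the libraries did not overlap (SE 1.08, edgeR adjusted p = 0.371, DESeq2 adjusted p = 0.0498). The 6 perivenous members (Cyp2a5, Cyp2c29, Cyp2c37, Cyp2c50, Cyp2c54 and Cyp3a11) had medians of 2.95 in CDK18KO and 4.06 in DKO against WT. All 6 were higher in DKO, while in CDK18KO 4 were higher and 2 lower, as Cyp2f2 was. The 2 were Cyp2c50 (-1.21, or -0.22 without WT 2) and Cyp2c54 (-1.96, SE 1.3). In the sums of genes outside the family, the 12 perivenous genes such as Glul were at 788 to 2197 CPM in WT, 1199 to 14052 CPM in CDK18KO and 1647 to 11723 CPM in DKO. CDK18KO 3, CDK18KO 5 and DKO 3 lay inside the WT range. The 12 periportal genes were at 236 to 1198 CPM in WT, 318 to 3800 CPM in CDK18KO and 902 to 2986 CPM in DKO. They were highest in CDK18KO 5, and CDK18KO 4 and DKO 1, 2 and 4 also lay above every WT library.

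Cyp2j enzymes make epoxides of arachidonic acid, and 3 of 8 were tested. Cyp2j5 was at 0 to 22.4 CPM in WT, 1.23 to 20.1 CPM in CDK18KO and 240, 86.7, 16.7 and 8.03 CPM in DKO. Its log2 fold change in DKO was 3.72 against WT (SE 1.19, edgeR adjusted p = 0.175, DESeq2 adjusted p = 0.0239) and 3.27 against CDK18KO (SE 1.18). Cyp2j6 was present in every library, between 0.943 and 46.5 CPM. Cyp2j9 had 0 counts in CDK18KO and 8 in WT, 6 of them in WT 2, and all 14 DKO counts were in DKO 1.

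Single members of the other family 2 branches had few counts. Cyp2r1, the vitamin D 25-hydroxylase, was at 0 to 0.908 CPM in WT, 0.472 to 3.95 CPM in CDK18KO and 0.641 to 10.9 CPM in DKO, with log2 fold changes of 2.46 (SE 1.01) and 3.72 (SE 1.04). Cyp2u1, a fatty acid hydroxylase, was the only tested member with a negative log2 fold change in DKO against WT in the edgeR fit, -0.95 (SE 0.95, edgeR adjusted p = 0.644). It stood at 3.60 to 11.9 CPM in WT, 0 to 7.80 CPM in CDK18KO and 0.536 to 7.08 CPM in DKO, where it was lowest in DKO 2 and DKO 4 and absent from CDK18KO 2 and 4. Cyp2s1, an epithelial P450, was higher in DKO than in CDK18KO by 4.30 (SE 1.30), but 24.1 CPM in DKO 4 carried the value, which was 1.09 without that library. Cyp2g1, a P450 of the olfactory epithelium, was not tested, with 16 counts in DKO, 3 in CDK18KO and 0 in WT.

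Cyp3a enzymes oxidise steroids, bile acids and many drugs. All 6 tested were higher than WT in CDK18KO, with a median of 1.93, and in DKO, with a median of 3.16. Cyp3a11, a main hepatic form and a target of Nr1i2, led the subfamily in every library. It was at 4.88, 94.4, 8.21, 19.2 and 109 CPM in WT, 171, 1415, 25.1, 429 and 50.5 CPM in CDK18KO, and 620, 1600, 68.6 and 306 CPM in DKO. WT 2 and WT 5 stood above CDK18KO 3, CDK18KO 5 and DKO 3. The log2 fold change against WT was 3.15 in CDK18KO (SE 1.15, edgeR adjusted p = 0.211, DESeq2 adjusted p = 0.0409) and 3.79 in DKO (SE 1.21, edgeR adjusted p = 0.175, DESeq2 adjusted p = 0.0195). With the hepatocyte covariate the DKO value was -0.11. Cyp3a25 was higher in CDK18KO by 2.88 (SE 1.04, edgeR adjusted p = 0.206).

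The female-biased Cyp3a44 stood apart from its relatives. It had counts in only WT 2 among WT libraries (1.36 CPM), 0 to 3.77 CPM in CDK18KO, and 49.5, 11, 1.28 and 1.61 CPM in DKO. Its difference was 5.23 in DKO against WT (SE 1.42, edgeR adjusted p = 0.174, DESeq2 adjusted p = 0.0191) and 4.03 in DKO against CDK18KO (SE 1.35).

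Cyp4a enzymes hydroxylate the end of fatty acids and are textbook targets of Ppara. Cyp4a14 led the subfamily in every library, at 1.39, 34.3, 2.74, 6.09 and 62.6 CPM in WT, 72.5, 1003, 8.88, 531 and 19.8 CPM in CDK18KO, and 305, 1106, 20.5 and 95.3 CPM in DKO. The groups overlapped. Its log2 fold change against WT was 3.96 in CDK18KO (SE 1.40, edgeR adjusted p = 0.199, DESeq2 adjusted p = 0.0257) and 4.18 in DKO (SE 1.44, edgeR adjusted p = 0.184, DESeq2 adjusted p = 0.0249). Cyp4a10 differed by 4.28 (SE 1.51) and 5.40 (SE 1.60). With the hepatocyte covariate the DKO values were -0.99 for Cyp4a14 and -0.12 for Cyp4a10.

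The other family 4 branches were less uniform. Cyp4v3, a fatty acid hydroxylase related to human CYP4V2, was at 0.696, 15.1, 2.13, 1.83 and 6.47 CPM in WT, 27.6, 213, 17.2, 85.9 and 15.1 CPM in CDK18KO, and 79.6, 186, 6.41 and 78.7 CPM in DKO. CDK18KO 5 and WT 2 were nearly level, and the other CDK18KO libraries lay above all WT libraries. The log2 fold change was 3.72 in CDK18KO (SE 1.0, edgeR adjusted p = 0.158, DESeq2 adjusted p = 0.00440) and 4.01 in DKO (SE 1.04, edgeR adjusted p = 0.174, DESeq2 adjusted p = 0.00434). Cyp4f enzymes inactivate leukotrienes and hydroxylate the ends of fatty acids. Over 6 Cyp4f genes the median log2 fold changes were 1.01 in CDK18KO and 1.61 in DKO against WT. Among them Cyp4f13 and Cyp4f16 had counts in every library, at 2.43 to 11.9 CPM and 2.16 to 10.5 CPM, and differed from WT by at most 0.97 (SE 0.51). Cyp4b1, made mostly in lung and kidney, was at 14.5 CPM in DKO 4 and at most 5.60 CPM elsewhere, and differed by 2.20 between DKO and CDK18KO (SE 0.88).

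**Figure D5:**
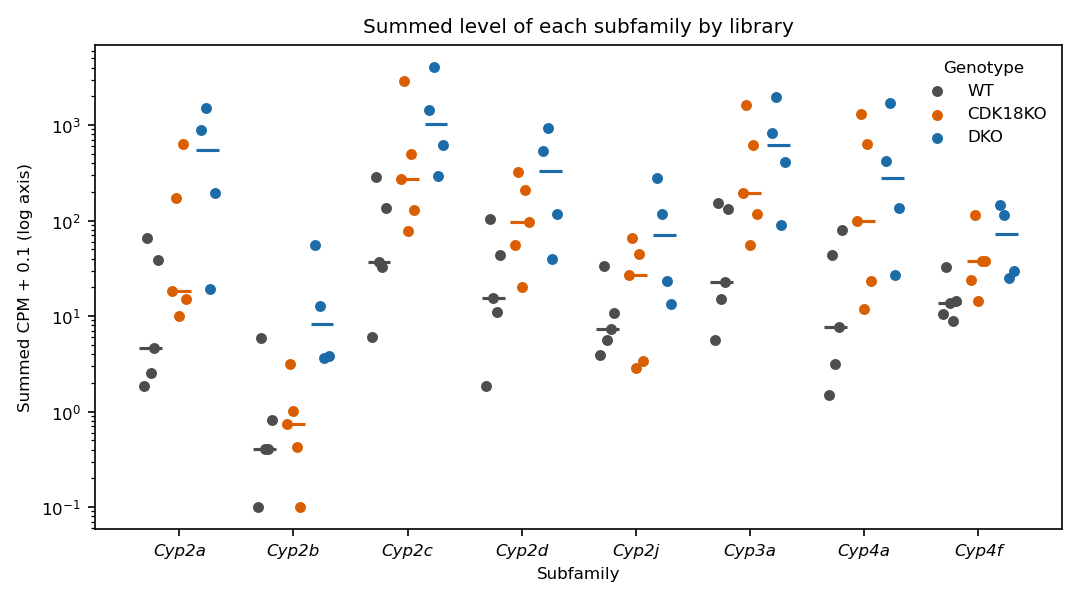
Summed CPM + 0.1 of 8 subfamilies on a log axis, 1 point per library, with a bar at the median of WT, CDK18KO and DKO. Medians go up from WT to CDK18KO to DKO in all 8, with groups that overlap in most, and Cyp2b is low outside DKO.

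Members with sex-biased expression in normal mouse liver were summarised together. The 9 tested female-biased genes (Cyp2a4, Cyp2b9, Cyp2b10, Cyp2b13, Cyp2c40, Cyp2c69, Cyp3a16, Cyp3a44 and Cyp4a14) had medians of 0.73 in CDK18KO against WT, 4.18 in DKO against WT and 3.48 in DKO against CDK18KO. The other 42 tested members had 1.97, 3.31 and 1.13. All 9 were higher in DKO than in CDK18KO, 7 of them at an unadjusted p under 0.05, as were 13 of the other 42 members and 5.52% of all genes. The edgeR test called 0 of the 9 and DESeq2 called 2 (0.654% of all genes). Sex is not in the labels, and Y-linked genes differed between libraries: their 4-gene sum was 214 CPM (WT 3), 735 CPM (WT 5) and 364 CPM (CDK18KO 1), at most 31.0 CPM in the other WT and CDK18KO libraries, and at most 2.68 CPM in DKO. Without those 3 libraries the medians of the female-biased genes were 1.11, 4.5 and 3.60, and with log2 Y-linked expression as a covariate 0.53, 3.95 and 2.99. With the hepatocyte covariate they were -0.80, 1.30 and 1.95. The part of sex in these values was not tested beyond this. Of the 3 male-biased members, Cyp2d9 and Cyp2j5 were higher and Cyp2u1 lower than WT in CDK18KO and in DKO.

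Genes that regulate or serve P450 enzymes were measured beside them. Of 26 receptors and transcription factors, 22 were higher than WT in CDK18KO and 22 in DKO, with medians of 1.22 and 1.85. The edgeR test called 0 of them in each comparison, DESeq2 called 4 and 6 higher (4.72% and 5.24% of all genes were called), and 10 and 11 were higher at an unadjusted p under 0.05 (9.47% and 11.6% of all genes). Of the 26, 1 was lower at such a p in DKO against WT. The smallest p values in CDK18KO were those of Nr5a2 (3.89, SE 1.06), the bile acid receptor Nr1h4 (3.16, SE 0.92) and Ppara (3.41, SE 1.02). In DKO they were those of the growth hormone receptor Ghr (2.26, SE 0.59), Nr1h4 (3.13, SE 0.95) and Nr1i3 (3.81, SE 1.16). Of 16 genes for electron supply and haem, 15 were higher in each knockout group, with medians of 1.20 and 1.39, and again 0 were called by edgeR, 6 and 7 by DESeq2, and 9 and 11 at an unadjusted p under 0.05, against the same shares of all genes. Por, the reductase that passes electrons to every microsomal P450, was higher by 1.86 in CDK18KO (SE 0.55) and 2.36 in DKO (SE 0.57). Alas1, the first enzyme of haem synthesis, was higher by 2.72 in DKO (SE 0.75). Among 12 tested P450 genes of other families, Cyp7a1, the rate-limiting enzyme of bile acid synthesis, differed by 4.05 (SE 1.27) and 5.36 (SE 1.37), and Cyp26b1, which degrades retinoic acid, by -3.02 (SE 1.0) and -2.91 (SE 1.09). The 29 tested hepatocyte markers had medians of 2.29 and 3.16 in the same comparisons, beside 1.83 and 3.33 for the P450 genes of families 1 to 4.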

How the data were processed

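The deposited file holds raw read counts per gene symbol for 14 libraries and 77981 genes, made by the authors and unnormalised. Per the labels' protocols, libraries came from 300.0 ng of RNA with a stranded, poly(A)-primed kit whose reads of 151 bases carry a 6-base molecular identifier. Per the submitters' processing notes, the tools named were STAR 2.7.11a, UMI-tools 1.1.2, DESeq2 1.32.0, HTSeq 1.99.2 and FastQC, and the builds GRCh38 and mm10, with no role given. The sources used here do not say whether identifiers were collapsed, so intervals and floors cover counting error only.

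Groups were compared on these counts in R 4.3.3 with edgeR 4.0.16 and its two-sided quasi-likelihood F test, with TMM factors, genes of 20 or more counts in all (19723), 1 fit over 14 libraries, and Benjamini-Hochberg adjustment at 0.05. An SE is the log2 fold change divided by the square root of F. Libraries were taken as biological replicates, as the series text calls them. Replicate numbers were not taken to pair the libraries, though a pairing was not excluded. The members, the gene lists and the naming rule were chosen with earlier results of these data known. The rule names the 20 members of smallest p per comparison, the 2 most counted of each subfamily, all members of role groups and 4 genes of each other list. Alternatives used DESeq2 1.42.0 and limma 3.58.1, and the pipeline was tested on simulated data. Gene positions and transcripts were those of GENCODE M21 (GRCm38), and promoters those of RefSeq GRCm38.p6, matched by symbol. Unused single-sample columns numbered 0.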

Additional observations from a re-analysis of the deposited data

Results flagged for a closer look

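In groups of 4 or 5 libraries, 12 of 201 series of member or subfamily levels held a library far from the rest by Dixon's 95% criterion, a rate that chance brings to about 1 in 20. Among WT libraries, WT 2 was the high one for Cyp2a12 (30.7 CPM against at most 1.44), Cyp2b10 (1.06 CPM against 0), Cyp2b13 (0.454 CPM against 0), Cyp2c23 (5.75 CPM against at most 0.719), Cyp2c69 (0.908 CPM against 0), Cyp3a44 (1.36 CPM against 0) and the Cyp2b sum (5.75 CPM). WT 3 was the high one for Cyp2c55, at 17.0 CPM against at most 1.21. Among CDK18KO libraries the far values were Cyp2c54 in CDK18KO 1 (3.9 CPM), Cyp2c68 in CDK18KO 2 (601 CPM against at most 85.0) and Cyp3a16 in CDK18KO 5 (2.83 CPM). In DKO it was Cyp2j9 in DKO 1 (4.13 CPM against 0). The criterion flags any library with counts where the rest of its group held 0. This was so for Cyp2b10, Cyp2b13, Cyp2c69, Cyp3a44 and Cyp2j9. In WT 2, the library with the most counts, Cyp2b10, Cyp2b13, Cyp2c69 and Cyp3a44 held 7, 3, 6 and 9 counts.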

How the results depend on the processing

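The count of members called was the result that moved most with the test. Comparisons are listed as CDK18KO against WT, DKO against WT, DKO against CDK18KO and the mean of the knockout groups against WT. In these, edgeR called 0, 0, 0 and 0 of 51, and DESeq2 called 10, 26, 6 and 20. In the mean contrast the main edgeR test called 0.101% of all genes and DESeq2 7.81%. With no filter on low counts edgeR called 2, 12, 2 and 11 members (0.45%, 0.656%, 0.109% and 1.86% of all genes). With limma voom the mean contrast had 4 calls (4.13% of all genes), and leaving out each library gave 0 to 4 there, the 4 without WT 2 (3.13% of all genes), and 0 to 0 in the other comparisons. RLE or upper-quartile factors, filterByExpr, a robust fit, a Y-linked covariate, leaving out the 3 libraries high in Y-linked genes and a prior count of 0.5 gave 0 calls in all 4 comparisons, and a fit of only the groups compared gave 0 in the 3 pairwise ones. Same-numbered libraries correlated by -0.286 to 0.708, with 6 of 13 pairs above 0.1, so the numbers were not taken to pair libraries. With the replicate number as a block, calls were 2, 13, 0 and 12 (1.31%, 1.79%, 0% and 3.77% of all genes).

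With the hepatocyte marker covariate the member median was -0.19, 0.28 and -0.054 in CDK18KO, DKO and the mean of both against WT, and 0 members were called. DESeq2 with the same covariate, added after the data were seen, gave -0.25, 0.29 and -0.063, and called 4 members in DKO against CDK18KO (Cyp1b1, Cyp2a4, Cyp2b9 and Cyp2f2), where it called 1.03% of all genes. Leaving out 1 library moved the medians from 1.0 to 2.99, 2.78 to 4.75, 0.71 to 2.44 and 2.23 to 3.91 in the 4 comparisons. With the covariate in edgeR the sign changed for 21, 21 and 18 of 51 members in CDK18KO against WT, DKO against WT and DKO against CDK18KO. Among the members whose values were tracked over all settings, the log2 fold change reversed in edgeR and in DESeq2 for Cyp2d10 (-0.20 and -0.23) in CDK18KO, for Cyp2a5 (-0.35 and -0.51), Cyp3a11 (-0.11 and -0.19), Cyp4a10 (-0.12 and -0.38) and Cyp4a14 (-0.99 and -1.10) in DKO against WT, and for Cyp2a5 (-0.45 and -0.40) in DKO against CDK18KO. In DESeq2 alone it also reversed for Cyp2a5 (-0.12) in CDK18KO. Cyp2a12 in CDK18KO turned to 0.37 with limma voom and ranged from -2.55 to 1.15 over single libraries left out, and Cyp2b9 from -2.35 to 0.33. Likewise Cyp1b1 in DKO against WT ranged from -0.73 to 1.57 and Cyp2c29 in DKO against CDK18KO from -0.13 to 3.42. The cause was not tested. Members with few counts are limited by depth, since 1 count is worth 0.151 to 0.719 CPM.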

Other observations

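Rows of families 1 to 4 with a letter after the gene number lie outside the naming rule, and the pair Cyp4a12a and Cyp4a12b, male-biased fatty acid hydroxylases of mouse liver and kidney, was the one with marked levels in 1 library. Cyp4a12a was at 158 CPM and Cyp4a12b at 93.9 CPM in CDK18KO 4, against at most 10.2 and 16.4 CPM in any other library. The same library held 0.329 CPM of the 4 Y-linked genes summed. Of the perivenous genes Cyp2e1 and Cyp1a2, which the rule leaves out, Cyp2e1 was at 4.53 to 148 CPM in WT, 34.9 to 1653 CPM in CDK18KO and 33.7 to 2369 CPM in DKO, and Cyp1a2 at 0.348 to 53.1, 10.4 to 415 and 30.5 to 963 CPM. Macrophage and Kupffer cell markers were highest in DKO 1, at 897 CPM over 10 genes against at most 339 CPM elsewhere, the library that was also highest for Cyp2a4, Cyp2a12, Cyp2b9, Cyp2f2, Cyp2j5 and Cyp3a44. The part of these cells in those values was not tested.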
